A study of Homo sapiens with 2 samples.

Results

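The genes described here encode the TBC family of RAB-inactivating proteins. The members were the probe sets whose platform annotation gives 1 symbol, beginning with TBC1D, TBCK or SGSM or being EVI5, EVI5L, RABGAP1, RABGAP1L, USP6NL or GRTP1. TBC1D16 and TBC1D7 were left out by the rule. It found 42 genes with 94 probe sets among 19775 genes on the arrays. The rule chooses genes by name, and each gene took its value from its brightest probe set. Of these, 38 are protein-coding, 2 are transcribed pseudogenes (TBC1D27P and TBC1D29P) and 2 are antisense RNAs that share the name of a neighbouring family gene (TBC1D8-AS1 and TBC1D22A-AS1).

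RAB proteins are small GTPases that mark the membranes of the secretory, endosomal and autophagic routes. Exchange factors, many with a DENN domain, load them with GTP, and TBC proteins return them to the inactive GDP-bound form by speeding up GTP hydrolysis through an arginine and a glutamine of the domain. Pigment cells depend on this cycle, since RAB27A carries melanosomes in the cell periphery and RAB32 and RAB38 bring the melanin enzymes to the maturing melanosome. Members named below for a RAB were assigned to it mostly by assays of purified or overexpressed protein, and several act on more than 1.

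The samples were 2 human melanoma cell lines with no treatment named in the labels, each measured on 1 Affymetrix U133 Plus 2.0 array from the total RNA of a culture in DMEM with serum. IGR39 was grown from a primary skin tumour that lacked pigment (achromic), whereas IGR37 came from a metastasis in a lymph node. Values are log2 expression levels made by the authors with RMA, and every difference is the value in IGR37 minus that in IGR39, and a value of 1 means 2-fold. No test was possible with 1 array for each line, no difference has a replicate check, and each value describes these cultures. In a bulk culture, less of a transcript in every cell and fewer cells that hold it cannot be told apart.

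Markers of the melanocyte lineage were high in IGR37 and mostly near background in IGR39. Of 6 measured melanocyte markers, all stood at 10.65 or more in IGR37. In IGR39, MITF, which drives melanocyte differentiation, stood at 7.57, while SOX10, TYR, TYRP1, PMEL and MLANA lay between 3.15 and 4.29, near background. Of 11 measured markers of lymphocytes and macrophages, fibroblasts and endothelium, and keratinocytes, only LUM reached log2 6, at 3.41 in IGR39 and 6.26 in IGR37, and its part in the results was not tested. The 27 poly-A spike-in probe sets, which follow the labelling, differed between the arrays by -0.47 to 0.68. Probe sets of 1 gene reaching log2 6 differed among themselves with a pooled SD of 0.40 over 3178 genes, and of 0.31 over the 8 family members with more than 1 such probe set.

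The 42 members differed little between the lines, whereas TBC1D16 and TBC1D7, which the rule leaves out, were higher in IGR37 by 3.48 and 4.09. At any level, 1 of 42 members was past 2-fold with the higher level in IGR37 (TBC1D4), 2 were past it with the lower level there (TBC1D12 and TBC1D2), and 39 lay within 2-fold. Among all 19775 genes, 10.6% were past 2-fold, 5.80% with the higher level in IGR37 and 4.85% with the lower. The members' median difference was -0.01, against 0.00 over all genes. Of the members, 36 (85.7%) differed by less than 0.5, as did 74.5% of all genes. The range of the poly-A spike-ins, whose median was 0.23, held 36 members, and the share of all genes inside it was not counted. These shares are descriptions of the arrays, with no test.

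**Figure D1:**
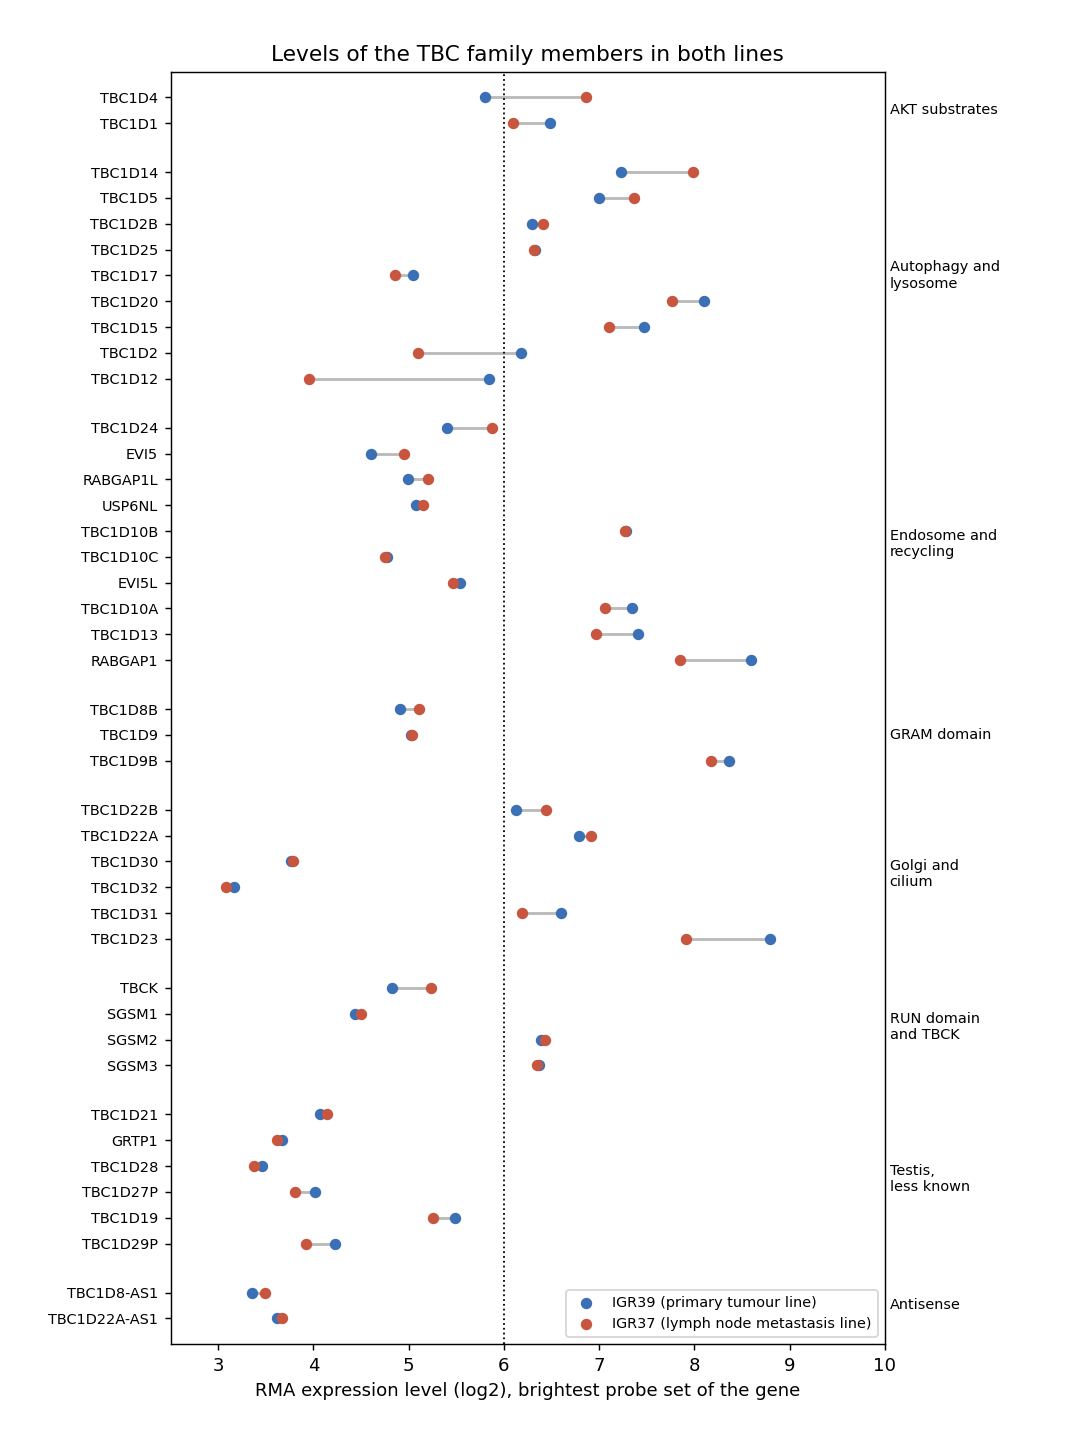
RMA expression level (log2, horizontal axis) of each of the 42 members in IGR39 (blue) and IGR37 (red), grouped by role, from the brightest probe set of the gene; a grey line joins the values of a gene and the dotted line marks log2 6. The points of most genes nearly coincide, and the longest lines are those of TBC1D12, TBC1D2 and TBC1D4.

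On the brighter array, log2 6 was reached by 20 members, all protein-coding, and 22 lay below it in both lines. Of the 20, 2 were past 2-fold, TBC1D4 upward and TBC1D2 downward. Of the 8501 genes at this level 21.0% were, 11.4% upward and 9.50% downward. Both of these members reached the minimum through 1 line alone, so a difference was built into their passing. Of the 18 members reaching log2 6 in both lines, 0 were past 2-fold, against 12.6% of the 6931 genes at that level in both. The median difference of the 20 was -0.10, against 0.07 over all genes at this level. In IGR37, 13 of the 20 (65.0%) were lower, as were 45.4% of all genes at this level. Of these 13, TBC1D10B, TBC1D25 and SGSM3 were lower by about 0.01 and turned higher with centring on array medians or housekeeping genes. TBC1D20 counts as lower by its brightest probe set alone. The SD of the differences of the 20 members was 0.51, and that of all genes at this level 1.18. TBC1D16 and TBC1D7, left out by the rule, also reached log2 6 in both lines and were past 2-fold upward. The counts and the SD thus describe the members and not the whole family.

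**Figure D2:**
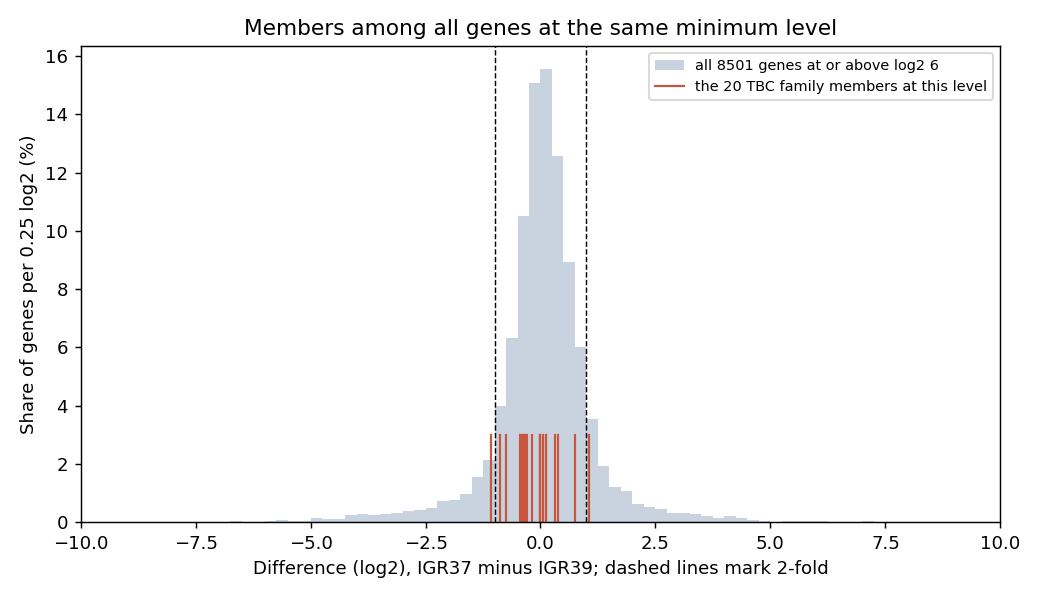
Share of the 8501 genes reaching log2 6 on the brighter array (percent per bin of 0.25, vertical axis) by their difference on the log2 scale (horizontal axis), with a red line for each of the 20 members at this level. The members span -1.08 to 1.06, while the genes reach beyond 9 in either direction.

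The family genes that the rule leaves out were each measured near log2 6 in IGR39. TBC1D16, a GTPase-activating protein studied in melanoma, stood at 6.33 in IGR39 and 9.82 in IGR37, and TBC1D7, a subunit of the TSC complex, at 6.32 and 10.41. Their differences of 3.48 and 4.09 exceeded the highest among the members, 1.06.

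Among the relatives phosphorylated by AKT, TBC1D4 was past 2-fold upward and TBC1D1 lay within 2-fold. TBC1D4, also called AS160, holds back the glucose transporter GLUT4 in fat and muscle until insulin signalling inactivates it. It was at 5.80 in IGR39 against 6.86 in IGR37 (difference 1.06, 2.09-fold). Its other probe set, dimmer at 4.64 and 5.65, differed by 1.01, so both placed the gene just past the limit. TBC1D1, its close relative in muscle, was at 6.48 against 6.10 (difference -0.38). Its 4 other probe sets, all under log2 6, differed by -0.54 to 0.35 and did not share a direction.

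Of the 9 members of autophagy and the lysosome, 2 were past 2-fold downward, 0 upward, and the median difference was -0.19. Over all genes, 4.85% were past it downward. This small group was not tested against that share, and the role lists were drawn up with earlier results of these data known. Among the 7 reaching log2 6, 1 was past the limit and the median was -0.01. TBC1D12, a RAB11-binding relative of TBC1D14, was at 5.85 in IGR39 against 3.96 in IGR37 (difference -1.89, 3.71-fold), the largest among the 42 members. It stayed under log2 6 in both lines, and its other probe set, at 3.19 and 2.91, differed by -0.28, where both values lay near background. TBC1D2, also called Armus, inactivates RAB7 and links it to the turnover of cadherin junctions. It was at 6.18 against 5.10 (difference -1.08, 2.11-fold), on its only probe set.

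The RefSeq promoters of both genes are rich in CG dinucleotides, the sites of DNA methylation in human cells, and are shown because the series concerns epigenetic regulation in melanoma. Each stretch is the 250 bases before the gene start in the assembly GRCh38.p14, 5′ to 3′ on the gene's strand, with every CG in capitals. TBC1D12 lies on the plus strand at chr10:94402291-94402540 and TBC1D2 on the minus strand at chr9:98255650-98255899.
TBC1D12: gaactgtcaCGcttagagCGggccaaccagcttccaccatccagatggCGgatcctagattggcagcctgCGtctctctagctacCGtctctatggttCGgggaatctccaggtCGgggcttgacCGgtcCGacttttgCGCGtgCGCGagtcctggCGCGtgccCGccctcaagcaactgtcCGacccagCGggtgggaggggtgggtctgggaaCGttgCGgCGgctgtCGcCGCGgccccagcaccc
TBC1D2: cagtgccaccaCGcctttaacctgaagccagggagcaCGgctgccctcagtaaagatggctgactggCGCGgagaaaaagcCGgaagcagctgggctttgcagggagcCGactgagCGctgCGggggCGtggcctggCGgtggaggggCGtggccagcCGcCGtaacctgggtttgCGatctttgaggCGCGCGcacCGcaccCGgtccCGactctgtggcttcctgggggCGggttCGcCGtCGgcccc
Each held 24 CG dinucleotides, with a GC content of 66.0% for TBC1D12 and 68.8% for TBC1D2. Over the 30 protein-coding members whose promoter the table holds, the median was 19.5 and the range 0 to 43. Over 15843 protein-coding promoters the median was 17. No promoter sequence was held for TBC1D4. Methylation was not measured here, so the sequences say nothing of its state in either line.

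TBC1D14, which binds RAB11 and restrains the forming of autophagosomes, stood closest to the limit from below among the higher members. On its only probe set it was at 7.23 in IGR39 against 7.98 in IGR37. This difference of 0.75 was opposite in sign to that of its relative TBC1D12. TBC1D5, a RAB7-inactivating protein bound to the retromer coat, was at 7.0 against 7.37 (difference 0.37), and a second probe set reaching log2 6 gave 0.66. A dimmer one, at 5.70 and 5.41, differed by -0.29.

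TBC1D15 and TBC1D17, which inactivate RAB7 on mitochondria during mitophagy, were both within 2-fold, with differences of -0.37 and -0.19. TBC1D15 stood at 7.48 in IGR39 and 7.10 in IGR37, and TBC1D17, under log2 6, at 5.05 and 4.86. TBC1D25, a RAB33B-inactivating protein that binds the ATG8 family, and TBC1D2B, the relative of TBC1D2, nearly coincided in the lines. TBC1D25 was at 6.33 and 6.32, and TBC1D2B at 6.30 and 6.41.

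TBC1D20, which inactivates RAB1 between the endoplasmic reticulum and the Golgi and is mutated in Warburg micro syndrome, had probe sets of opposite sign. The brighter was at 8.10 in IGR39 against 7.76 in IGR37 (difference -0.34), and the other at 5.54 against 6.29 (difference 0.75). No direction is given for this gene. Of the 8 members with at least 2 probe sets reaching log2 6, 5 had all of them in 1 direction and 3 did not. The others of these 3 were TBC1D25, whose values differed by -0.01 and 0.11, and SGSM3, by -0.01 and 0.64.

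**Figure D3:**
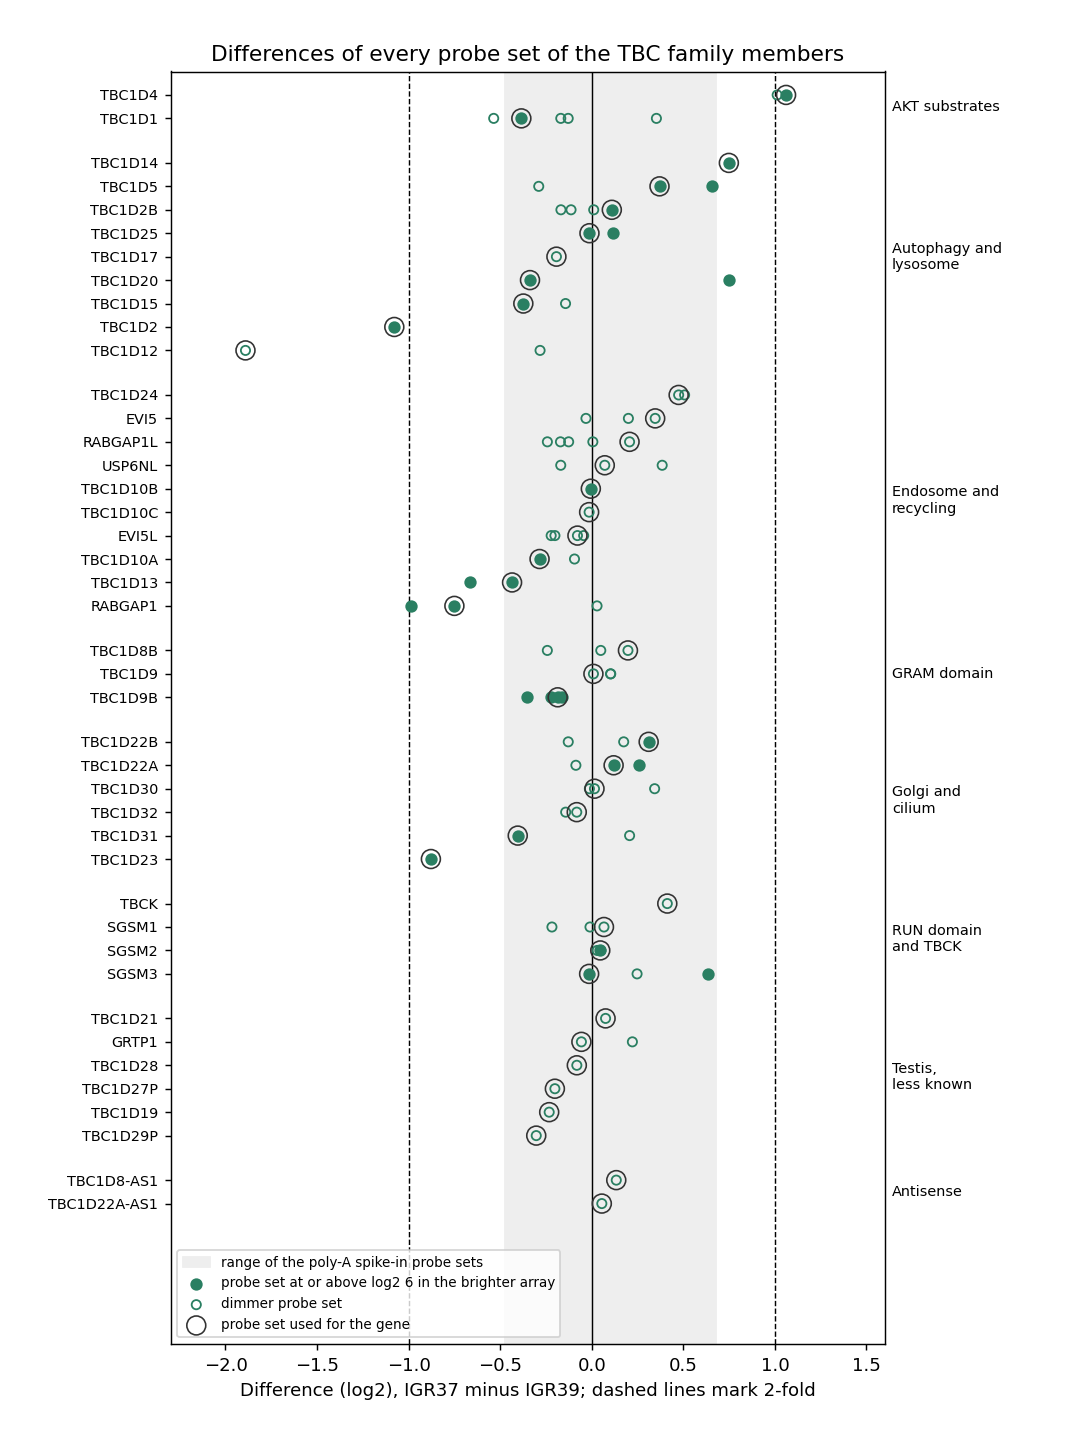
Difference between the lines on the log2 scale (horizontal axis, IGR37 minus IGR39) of each of the 94 probe sets of the members, with filled points reaching log2 6 on the brighter array, open points below it, large rings on the probe set used for the gene, and a grey band for the range of the poly-A spike-ins. Dashed lines mark 2-fold, and 4 of the 94 probe sets lie past them, those of TBC1D12, TBC1D2 and both of TBC1D4.

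The members of endosomes and recycling lay within 2-fold in 10 of 10 cases, with a median difference of -0.01. Among all genes, 10.6% were past 2-fold at any level. Neither this small group nor those below were tested against that share. RABGAP1, a RAB6-inactivating protein found at the centrosome and Golgi, was the one nearest the limit. It was at 8.60 in IGR39 against 7.85 in IGR37 (difference -0.75), and its other probe set reaching log2 6 was at 7.74 against 6.76 (difference -0.99). Its dimmest probe set, cross-hybridising by name, was at 4.25 and 4.28. TBC1D13, which inactivates RAB35, was also lower on both of its probe sets, at 7.41 and 6.97 on the brighter and at 7.42 and 6.75 on the other.

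The EPI64 proteins TBC1D10A, TBC1D10B and TBC1D10C act on RAB35 and RAB27A, the latter being the RAB of peripheral melanosomes. TBC1D10A was at 7.35 in IGR39 and 7.06 in IGR37, TBC1D10B at 7.28 in both, and TBC1D10C, under log2 6, at 4.77 and 4.76. All 3 lay within 2-fold, where the differences of the melanocyte markers ran from 4.25 to 9.90.

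The remaining 5 endosomal members lay under log2 6 in both lines. USP6NL, also called RN-tre, which inactivates RAB5 and slows the uptake of the EGF receptor, was at 5.08 in IGR39 and 5.15 in IGR37. EVI5, a RAB11-binding protein that also acts in mitosis, was at 4.61 and 4.95, and its relative EVI5L at 5.54 and 5.46. RABGAP1L, which acts on RAB22A, was at 5.0 and 5.20, with differences of -0.24 to 0.21 over its 5 probe sets. TBC1D24, a gene of inherited epilepsies, was at 5.40 and 5.88, and its probe sets differed by 0.47 and 0.51.

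Of the members with a GRAM domain, 3 of 4 listed genes had a value and all lay within 2-fold. TBC1D9B, which acts on RAB11A, was at 8.36 in IGR39 and 8.18 in IGR37. Its 4 probe sets all reached log2 6 and differed by -0.36 to -0.16, so they shared a direction and a small size. TBC1D9 was at 5.03 in both lines and TBC1D8B at 4.91 and 5.11.

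Of 6 members of the Golgi and the cilium, all lay within 2-fold, with a median difference of -0.03. TBC1D23, a protein of the trans-Golgi network that captures endosomal vesicles on golgins and lacks the catalytic residues of the domain, stood nearest to the limit. It was at 8.79 in IGR39 against 7.92 in IGR37 (difference -0.88) on its only probe set. TBC1D31, a protein of centriolar satellites, was at 6.60 and 6.19.

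TBC1D22A and TBC1D22B, Golgi proteins that bind the adaptor ACBD3, had differences of 0.12 and 0.31, inside the range of the poly-A spike-ins. Their other probe sets differed by 0.26 and -0.09 for TBC1D22A and by -0.13 and 0.17 for TBC1D22B. TBC1D22A was at 6.79 and 6.91 and TBC1D22B at 6.13 and 6.44. TBC1D30 and TBC1D32, which act in the making of the primary cilium, were near background, at 3.77 and 3.78 and at 3.17 and 3.08.

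The RUN domain members and TBCK lay within 2-fold in 4 of 4 cases, with a median of 0.06. SGSM2, also called RUTBC1, inactivates RAB32 and RAB38 in melanocytes, and was at 6.39 in IGR39 and 6.44 in IGR37. Its 3 probe sets differed by 0.03 to 0.05. SGSM3, a RAB5-inactivating protein, was at 6.37 and 6.35, and SGSM1 at 4.44 and 4.50. TBCK, whose loss causes a childhood brain disease with low muscle tone, was at 4.83 and 5.24.

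The genes of hominoid, testis or less known function were all dim. The 6 that were measured, TBC1D19, TBC1D21, TBC1D28, TBC1D27P, TBC1D29P and GRTP1, stood between 3.38 and 5.49, with differences of -0.30 to 0.08. The antisense RNAs stood between 3.36 and 3.68. No order or direction is read from values at this level.

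After their values were seen, a feature that the rule did not use was noticed in the members past 2-fold. Each lies on a chromosome whose median difference has the same sign as its own. Among genes reaching log2 6, the 318 of chromosome 10, where TBC1D12 lies, had a median difference of -0.50, the lowest of 23 chromosomes. The 365 of chromosome 9, where TBC1D2 lies, had a median of -0.35, and the 156 of chromosome 13, where TBC1D4 lies, a median of 0.69. Of these genes past 2-fold, 78 were lower and 19 higher on chromosome 10, and 51 lower and 18 higher on chromosome 9. On chromosome 13, 45 were higher and 8 lower. Most genes past 2-fold there thus had the sign of their chromosome's median. The match of these members, of which TBC1D12 was under log2 6, was not tested. Less the median of its chromosome, TBC1D12 differed by -1.39, TBC1D2 by -0.73 and TBC1D4 by 0.37. All 3 members of chromosome 9 were lower in IGR37, TBC1D2, RABGAP1 and TBC1D13. The other members of chromosomes 10 and 13, both under log2 6, had the sign opposite to their chromosome's median, USP6NL at 0.07 and GRTP1 at -0.06.

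The nearest genes were then examined. Of the 5 genes reaching log2 6 on either side of TBC1D12, 10 in all, 5 were past 2-fold downward and 0 upward, with a median of -0.86. Around TBC1D2, 2 of 10 were past it downward and the median was -0.34. Around TBC1D4, 1 was past it upward and 1 downward, with a median of 0.51. Of all genes reaching log2 6, 9.50% were past 2-fold downward and 11.4% upward. The share downward was 24.5% on chromosome 10 and 14.0% on chromosome 9, and the share upward was 28.8% on chromosome 13. The part of chromosome or neighbourhood in these differences was not tested. Of the 20 members reaching log2 6, 13 had the sign of their chromosome's median and 7 the opposite, TBC1D23 on chromosome 3 (median 0.28) among them. Of all 8487 genes at this level with a chromosome, 65.3% had the sign of their chromosome's median, so the members' share was near that of all genes.

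**Figure D4:**
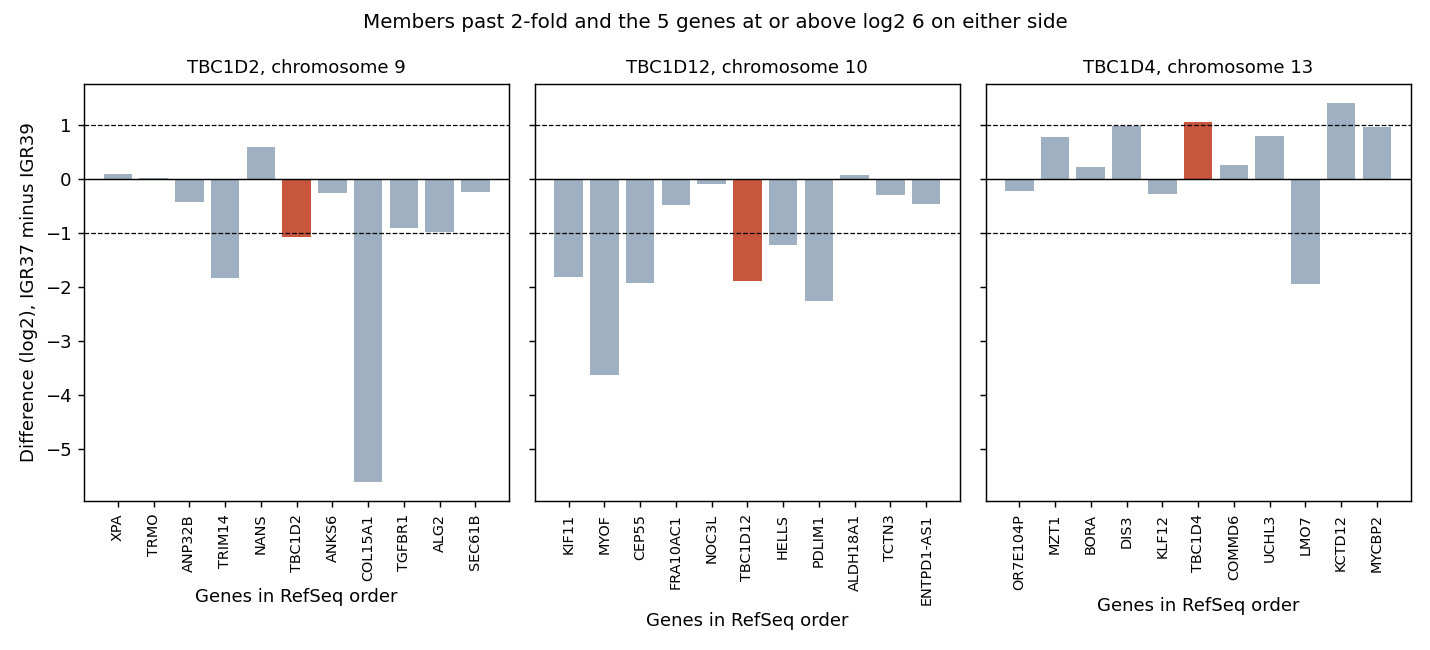
Difference between the lines on the log2 scale (vertical axis) of TBC1D2, TBC1D12 and TBC1D4 (red) and of the 5 genes reaching log2 6 on either side in RefSeq gene order (grey), with dashed lines at 2-fold. The genes around TBC1D12 run from -3.63 to 0.08, those around TBC1D4 from -1.94 to 1.41.

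Promoter letters were searched because the lines differ in MITF, which binds the E-box CACGTG and its variant CATGTG with CACATG as its reverse complement. In the 250 bases before the start, on both strands and with each promoter counted once per motif, CACGTG was found in 7 of the 32 member promoters held by RefSeq (21.9%). It was found in 6.49% of all 27305 promoters of this length. Of the protein-coding promoters, 6 of 30 members held it (20.0%) and 7.84% of all. Among protein-coding genes, the variant CATGTG was in 2 member promoters (6.67%) against 7.18% of all, the AP-1 motif TGANTCA in 1 (3.33%) against 5.04%, and the cyclic AMP response element TGACGTCA in 0 against 2.32%.

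The CACGTG matches of the 4 members reaching log2 6 are shown so that the letters around them can be compared. Each lies in the assembly GRCh38.p14, 5′ to 3′ on the gene's strand, with the match in capitals. RABGAP1 is at chr9:122940967-122941006 and TBC1D13 at chr9:128787157-128787196, both on the plus strand. TBC1D15 is at chr12:71839721-71839758 on the plus strand and TBC1D20 at chr20:462555-462594 on the minus strand.
RABGAP1: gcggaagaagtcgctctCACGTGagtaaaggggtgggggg
TBC1D13: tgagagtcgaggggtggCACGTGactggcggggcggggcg
TBC1D15: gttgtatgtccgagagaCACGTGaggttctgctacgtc
TBC1D20: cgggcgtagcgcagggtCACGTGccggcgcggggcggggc
The matches begin 36, 79, 21 and 44 bases before the start, in that order. The differences of the brightest probe sets were -0.75, -0.44, -0.37 and -0.34, all within 2-fold, and the last was of opposite sign on the other probe set. Of all 20 members reaching log2 6, with or without a match, 13 (65.0%) were lower in IGR37, some of them by about 0.01. A relation between match and difference was not tested. The 3 other matching members, USP6NL, TBC1D28 and TBC1D8-AS1, lay under log2 6 in both lines. A match is a description of the letters and not a binding site.

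Among the genes that activate RABs, RIN2 differed by more than any TBC member did. Of 37 measured exchange factors, 25 reached log2 6, and 5 of these (20.0%) were past 2-fold, 2 upward and 3 downward in IGR37, a share near the 21.0% of all genes at this level. RIN2, a RAB5 exchange factor, stood at 8.08 in IGR39 against 3.49 in IGR37, and its relative RIN3 at 6.65 and 5.32. The DENN domain gene DENND5B was at 6.99 and 5.70, and DENND6A at 6.88 and 7.93. HPS4, a subunit of the complex that activates RAB32 and RAB38 in melanosome biogenesis, was at 6.16 and 7.97. HPS1, also a subunit of it, was at 6.26 and 6.44 (difference 0.18). SGSM2, which inactivates the same RABs, differed by 0.05.

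The other genes that handle RABs formed small groups. Of 5 measured GDI, escort and prenylation genes, 1 (20.0%) was past 2-fold at any level, against 10.6% of all genes. It was the prenylation escort protein CHML, with 5.19 in IGR39 and 6.36 in IGR37. RAB3GAP1, a RAB-inactivating protein without a TBC domain, was at 8.61 and 9.01. Of the 12 partners in the retromer, at mitochondria and in the ATG8 family, 1 (8.33%) was past 2-fold, against the same 10.6%. It was the autophagosome protein gene MAP1LC3B, at 8.56 and 9.74. The retromer core subunit VPS35, to whose complex TBC1D5 binds, was at 10.57 and 10.91, and VPS26A at 9.72 and 8.82.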

How the data were processed

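The authors deposited log2 levels of 54675 probe sets for each array, made with RMA (affy package) per the submitters' processing notes. Their versions, and which arrays were normalised as 1 set, are not given in the sources used. RMA equalises the arrays' distributions and shrinks differences between dim values. Of the 54675 probe sets, 41091 had 1 gene symbol in the platform annotation of the array. The array medians were 4.17 and 4.14, and 23.9% and 24.3% of probe sets reached log2 6.

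Each gene took its value from the probe set of highest mean, and the log2 value in IGR39 was subtracted from that in IGR37. Genes at least 2-fold apart were counted at any level and reaching log2 6. No test was run with 1 array per line, whose number limits the precision. All 42 members matched the RefSeq gene table of GRCh38.p14 by gene identifier, which gave biotypes, chromosomes and gene order. The promoter table held 32 of them. The members, lists and counts were chosen with earlier results of these data known, and the chromosome and promoter comparisons after the values were seen. All members are accounted for. Those past 2-fold, those with probe sets of opposite sign and those nearest the limit are described with their probe sets. The counting was tested on simulated data with implanted changes well past 2-fold and little noise. That checks the counting itself and says nothing of calls near the limit. Alternatives were a minimum of log2 5, 6 or 7, limits of 1.5-fold and 3-fold, the mean over probe sets, no probe sets ending in _x_at or _s_at, centring on array medians or housekeeping genes, a lowess trend (span 0.3) and updated symbols. Python 3.11.15, numpy 2.4.6, pandas 2.3.3, statsmodels 0.14.6 and matplotlib 3.10.9 were used.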

Additional observations from a re-analysis of the deposited data

Results flagged for a closer look

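Of the 4 probe sets whose annotation lists several symbols, at least 1 of them fitting the rule, 2 reached log2 6, and these entered no gene value. The one listing 10 symbols stood at 6.96 in IGR39 against 6.22 in IGR37 (difference -0.74) and the other at 6.24 and 6.40. These were singled out because signal appeared in data outside the gene values, and no gene is named from them.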

How the results depend on the processing

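The count of 1 member higher and 2 lower by 2-fold or more held with the mean over probe sets, array-median, housekeeping or lowess scaling, updated symbols and a minimum of log2 5. At a minimum of log2 6, which leaves 20 members, 1 was lower, since TBC1D12 drops out, and the median was -0.10. At log2 7, which leaves 10 members, 0 were higher, 0 were lower and the median was -0.31. Leaving out the probe sets that end in _x_at or _s_at, which leaves 38 members, 1 was lower, since TBC1D2 has no other probe set. At a 1.5-fold limit 2 were higher and 4 lower, and at 3-fold 0 were higher and 1 was lower. Of 248 recomputed member differences, 246 moved by less than the pooled SD within a gene and 0 of the members past 2-fold changed sign. With the mean over probe sets TBC1D12 gave -1.09 and TBC1D20 0.20. No paired analysis was possible because each line has 1 array. The number of arrays limits the precision, and differences between values near background are compressed.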
